A study of Mus musculus with 12 samples.

Results

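Penk, Cpe, Gsn, Serpine2, Csgalnact1, Dusp8 and Htatip2 are 7 genes of the 52636 listed in the liver counts, and they were chosen by their lower read counts in p53 knockout livers of these same data. Livers came from C57BL/6 mice aged 12 weeks, with p53 (wild type, wt) or without it (knockout, ko), kept on a normal diet or on HFD, a high-fat diet. Each of the 4 groups, called wt_normal, ko_normal, wt_HFD and ko_HFD, has 3 RNA sequencing libraries. The sources used here do not give the knockout allele, how long HFD was fed, the sex of the mice or whether they had fasted. Nor do the labels say that the replicates were separate animals. The series title names p53 control of squalene epoxidase, an enzyme of cholesterol synthesis.

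The p53 protein is a transcription factor that binds paired half-sites in DNA and activates genes of cell cycle arrest, cell death, metabolism and secretion. Many changes that follow its loss are indirect, and a bulk liver sample mixes hepatocytes with endothelial, stellate, immune and other cells. Penk encodes proenkephalin, the precursor of the opioid enkephalin peptides, and Cpe encodes carboxypeptidase E, which trims the basic residues left when such precursors are cut. Gsn encodes gelsolin, which severs and caps actin filaments inside cells and in a secreted form in plasma. Serpine2 encodes protease nexin 1, a secreted inhibitor of thrombin and plasminogen activators. Csgalnact1 encodes a Golgi enzyme that starts chondroitin sulfate chains on proteoglycans. Dusp8 encodes a phosphatase that inactivates MAP kinases, and Htatip2 (TIP30) encodes a short-chain dehydrogenase-like protein that acts inside the cell. The products of Penk, Cpe, Gsn and Serpine2 are thus secreted or act in the secretory pathway, and those of Dusp8 and Htatip2 are intracellular.

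The 7 genes lie on 5 mouse chromosomes in GENCODE M21 (build GRCm38). Penk (ENSMUSG00000045573) is at chr4:4133531-4138819 on the minus strand, Cpe (ENSMUSG00000037852) at chr8:64592542-64693054 (minus) and Gsn (ENSMUSG00000026879) at chr2:35256380-35307892 (plus). Serpine2 (ENSMUSG00000026249) is at chr1:79794197-79861180 (minus) and Csgalnact1 (ENSMUSG00000036356) at chr8:68356781-68735146 (minus). Dusp8 (ENSMUSG00000037887) is at chr7:142079490-142095843 (minus) and Htatip2 (ENSMUSG00000039745) at chr7:49759115-49773975 (plus). Annotated genes that overlap Penk, Gsn, Dusp8 or Csgalnact1 had between 0 and 1 counts summed over all 12 libraries, so shared reads with them could not be seen in these counts.

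Start regions were read from RefSeq promoter windows of 300 bases (250 before to 50 after a start, build GRCm38.p6), which held 7 windows for 4 of the genes: Gsn, Serpine2, Dusp8 and Htatip2. The p53 half-site was searched by its 10-letter consensus on both strands. It was in 0 of these 7 windows and in 8.36% of all 32851 windows. GGGCGG or its reverse complement CCGCCC, the GC box, was in 6 of the 7 windows and in 35.7% of all windows, and the windows of the 4 genes were 54.7% to 77.7% G or C against a median of 52.7% over all. These matches describe the letters of the windows and no binding was measured. The farther 215 bases of the windows are shown for 3 genes and, as a contrast from the same table, for Cdkn1a, a direct p53 target. Of the Cdkn1a windows in the table, the one shown has 2 half-sites and 0 GC boxes, and the other has 0 half-sites and 2 GC boxes. Capitals mark GC boxes in the first 3 sequences and p53 half-sites in the last. They are Serpine2 at chr1:79858701-79858915 (minus strand), Dusp8 at chr7:142095320-142095534 (minus), Htatip2 at chr7:49758856-49759070 (plus) and Cdkn1a at chr17:29090729-29090943 (plus).
Serpine2: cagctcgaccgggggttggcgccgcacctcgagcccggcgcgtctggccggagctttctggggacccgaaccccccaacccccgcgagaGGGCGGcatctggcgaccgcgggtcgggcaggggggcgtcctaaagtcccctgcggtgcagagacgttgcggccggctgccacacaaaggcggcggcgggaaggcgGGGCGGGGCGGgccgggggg
Dusp8: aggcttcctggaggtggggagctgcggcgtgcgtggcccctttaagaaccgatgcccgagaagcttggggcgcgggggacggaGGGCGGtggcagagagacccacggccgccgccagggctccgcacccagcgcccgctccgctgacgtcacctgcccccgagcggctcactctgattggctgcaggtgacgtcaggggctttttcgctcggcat
Htatip2: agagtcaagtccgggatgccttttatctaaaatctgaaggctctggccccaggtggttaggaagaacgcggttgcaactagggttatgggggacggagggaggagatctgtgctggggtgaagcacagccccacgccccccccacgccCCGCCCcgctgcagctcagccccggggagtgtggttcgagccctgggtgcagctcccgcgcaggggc
Cdkn1a: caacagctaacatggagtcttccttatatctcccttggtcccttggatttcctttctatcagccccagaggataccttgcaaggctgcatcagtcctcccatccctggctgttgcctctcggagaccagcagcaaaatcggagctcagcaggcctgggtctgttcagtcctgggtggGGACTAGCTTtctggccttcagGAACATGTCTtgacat

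Total counts ran from 15465187 to 20492567 per library, and all 7 genes were among the 14433 that passed the filter on low counts. Trp53, which encodes p53, had 8.54 to 24.5 CPM (read counts scaled to library size, TMM-normalised) in the wt libraries and 0.273 to 1.62 CPM in the ko libraries, with no overlap on either diet. Cdkn1a, the p53 target that inhibits cyclin-dependent kinases, had 31.9 to 115 CPM in wt_normal, a median of 13.7 CPM in wt_HFD and 0.811 to 4.14 CPM in the ko libraries, also without overlap. Library wt_normal 2 stood apart from the others: skeletal muscle markers summed to 9231 CPM there and to at most 14.4 CPM elsewhere, and B and plasma cell markers to 179 CPM against at most 19.7. Neural and Schwann cell markers summed to 43.2 CPM there and to at most 22.6 CPM elsewhere. Per kilobase of exon, averaged over the 4 groups, Htatip2 (23.2 CPM per kb) and Gsn (15.1) were the most abundant of the 7, then Serpine2 (4.02), Cpe (1.07), Dusp8 (0.499), Penk (0.311) and Csgalnact1 (0.0983).

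The ko-against-wt contrasts chose the genes, so their values below are a description and carry no test. Fitted changes are log2 values with a standard error (SE), ko against wt, from 1 edgeR fit of the 4 groups to all 12 libraries. On normal diet every ko library lay below every wt library for all 7 genes, which holds for 11.4% of all tested genes in that direction. On HFD this held for 2 of the 7, Serpine2 and Csgalnact1 (6.85% of tested genes), and the same 2 were apart on both diets (1.62%). A call means a Benjamini-Hochberg adjusted p under 0.05 by edgeR's quasi-likelihood test. Called lower were 4 of the 7 on normal diet (Cpe, Gsn, Serpine2 and Htatip2; 0.0624% of tested genes), 1 on HFD (Serpine2; 0.0277%) and 6 averaged over the diets (all but Htatip2; 0.374%). Since the genes were chosen for these contrasts, nothing is read from those shares. The calls moved with single libraries: on normal diet 0 of the 7 were called without wt_normal 2, wt_normal 3, any 1 of the ko_normal libraries, ko_HFD 1 or ko_HFD 2. Without ko_HFD 3 Htatip2 was the 1 gene called, and without wt_HFD 2 Penk joined the 4. On HFD the call of Serpine2 held without wt_normal 3, ko_normal 1 or wt_HFD 3 and was lost without any other single library. That call was also lost with the replicate number as a block, by voom, with only the 2 groups compared, and without wt_normal 2 and wt_HFD 2 together. In the average over diets Serpine2 was called with any 1 library left out, and between 1 and 6 of the 7 genes passed.

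**Figure D1:**
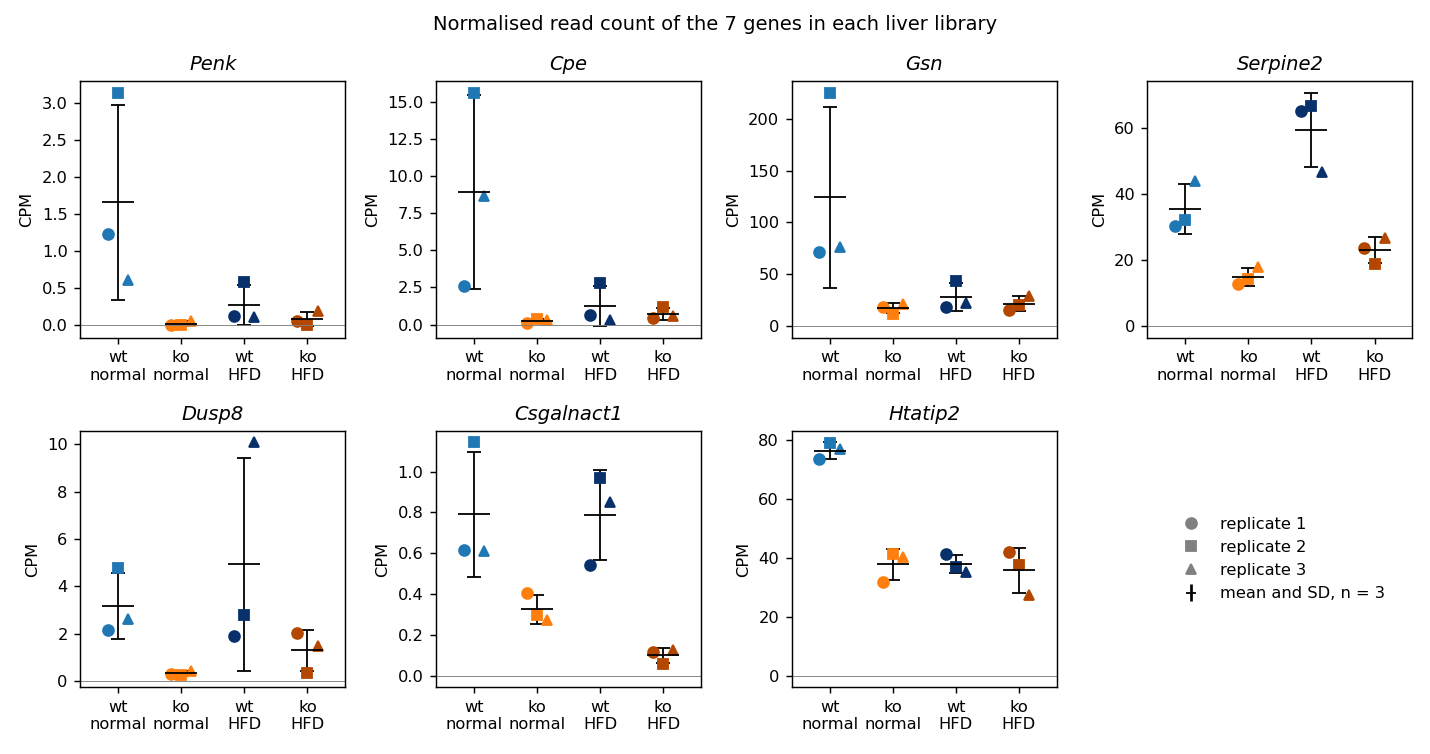
Normalised read count (CPM, linear axis) of each gene in each of the 12 libraries, with the mean and SD of the 3 libraries of a group as horizontal line and bar. On normal diet no ko point reaches a wt point in any panel, while on HFD the groups are apart for Serpine2 and Csgalnact1.

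Penk, the enkephalin precursor, was close to absent from ko livers and low in wt livers. It had 1.23, 3.14 and 0.613 CPM (20, 66 and 12 counts) in wt_normal 1, 2 and 3. In ko_normal it had 0, 0 and 0.0545 CPM, from 0, 0 and 1 counts. A count of 0 allows up to 0.174 CPM in ko_normal 1 and 0.150 CPM in ko_normal 2, from a floor of 3 counts per library. All 3 wt_normal libraries were above these limits, and wt_normal 2 alone held 63.0% of the group's summed CPM. The ratio of summed wt to ko counts per depth was 95.9 (exact 95% interval 16.8 to 3828, counting error only), and the fitted change was -6.06 (SE 1.20). Without wt_normal 2 the fitted change was -5.18, so the direction did not rest on that library. Without ko_normal 3, which held the 1 ko count, it was -7.88, so its size was not stable. In a bulk sample, fewer cells of a type and less RNA per cell cannot be told apart, for Penk and for the other genes.

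On HFD, Penk had 0.12, 0.581 and 0.113 CPM in wt_HFD (2, 9 and 2 counts). The ko_HFD libraries had 0.0584, 0 and 0.188 CPM (1, 0 and 3 counts). The groups overlapped, since ko_HFD 3 was above wt_HFD 1 and 3, and wt_HFD 2 held 71.3% of the wt sum. The count ratio was 3.29 (1.02 to 13.9), with a fitted change of -1.65 (SE 1.13) that shrank to -0.51 without wt_HFD 2. At 13 counts against 4, a difference on this diet was at the limit of what the depth can show.

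Cpe, the carboxypeptidase that finishes neuropeptides, was also highest in wt_normal 2, with 2.59, 15.6 and 8.63 CPM in wt_normal 1, 2 and 3 (42, 328 and 169 counts). The ko_normal libraries had 0.116, 0.399 and 0.273 CPM (2, 8 and 5 counts), and the lowest wt library was 6.47 times the highest ko library. The fitted change was -5.03 (SE 0.90), and it was -4.34 without wt_normal 2, which held 58.2% of the wt sum. On HFD the wt libraries had 0.661, 2.77 and 0.283 CPM and the ko libraries 0.409, 1.15 and 0.564 CPM. All 3 ko_HFD libraries were above wt_HFD 3, so the groups overlapped. The fitted change on HFD was -0.78 (SE 0.82), and it turned to 0.59 without wt_HFD 2, which held 74.6% of the wt sum. The lower Cpe of ko livers on HFD was thus carried by 1 library.

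Gsn, the actin-severing gelsolin, was per length the most abundant of the secreted products. It had 71.8, 225 and 75.9 CPM in wt_normal and 18.4, 11.9 and 21.4 CPM in ko_normal. Library wt_normal 2 held 60.4% of the wt sum, yet wt_normal 1 and 3 were close to each other and both more than 3 times the highest ko library, with a lowest-to-highest ratio of 3.36. The fitted change was -2.85 (SE 0.48) with all libraries and -2.08 without wt_normal 2. On HFD, Gsn had 18.1, 43.6 and 22.2 CPM in wt and 15.3, 20.7 and 29.0 CPM in ko. Only wt_HFD 2 was above all ko libraries there. The fitted change of -0.37 (SE 0.45) became 0.10 without wt_HFD 2.

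Serpine2, the thrombin and plasminogen activator inhibitor, was lower in every ko library than in any wt library of the same diet. It had 30.3, 32.2 and 44.1 CPM in wt_normal and 12.7, 14.3 and 17.9 CPM in ko_normal (means 35.6 ± 7.5 and 15.0 ± 2.7, SD, n = 3). On HFD it had 65.3, 66.9 and 46.7 CPM in wt and 23.8, 18.7 and 26.6 CPM in ko (means 59.6 ± 11 and 23.0 ± 4.0). The lowest wt library was 1.69 times the highest ko library on normal diet and 1.75 times on HFD. The fitted changes were -1.25 (SE 0.22) and -1.37 (SE 0.21), a 2.37-fold and a 2.59-fold lower level in ko. With any 1 of the 12 libraries left out they ran from -1.38 to -1.06 and from -1.52 to -1.24.

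Csgalnact1, which starts chondroitin sulfate chains, was the least abundant of the 7 per length. It had 0.615, 1.14 and 0.613 CPM in wt_normal (10, 24 and 12 counts) and 0.406, 0.300 and 0.273 CPM in ko_normal (7, 6 and 5 counts). On HFD it had 0.541, 0.968 and 0.850 CPM in wt (9, 15 and 15 counts) and 0.117, 0.0576 and 0.125 CPM in ko (2, 1 and 2 counts). The groups were apart on both diets, by a lowest-to-highest ratio of 1.51 on normal diet and 4.32 on HFD. The wt-to-ko ratio of summed counts per depth was 2.50 (1.42 to 4.58) on normal diet and 7.91 (3.11 to 25.7) on HFD, and these counting intervals overlap. The fitted changes were -1.27 (SE 0.50) and -2.90 (SE 0.60). Without wt_normal 2 the first was -0.88, while the second stayed between -3.10 and -2.63 with any 1 library left out.

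Dusp8, the MAP kinase phosphatase, had 2.15, 4.76 and 2.61 CPM in wt_normal (35, 100 and 51 counts) and 0.290, 0.250 and 0.436 CPM in ko_normal (5, 5 and 8 counts). The lowest wt library was 4.94 times the highest ko library, and the fitted change was -3.27 (SE 0.76). It was -2.83 without wt_normal 2. On HFD, Dusp8 had 1.92, 2.77 and 10.1 CPM in wt and 2.04, 0.345 and 1.50 CPM in ko. The groups overlapped by 1 library, ko_HFD 1 above wt_HFD 1, and wt_HFD 3 held 68.2% of the wt sum. The fitted change on HFD was -1.93 (SE 0.67) and -0.85 without wt_HFD 3. That library was also the highest of the 6 HFD libraries in Trp53 (24.5 CPM) and in Cdkn1a (76.6 CPM), and the part of this in the Dusp8 value was not tested.

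Htatip2, the most abundant of the 7 per length, differed between genotypes on normal diet with the narrowest spread. It had 73.6, 79.0 and 76.8 CPM in wt_normal and 31.8, 41.4 and 40.3 CPM in ko_normal (means 76.5 ± 2.8 and 37.9 ± 5.3, SD, n = 3). No library carried this difference, since each wt_normal library held close to an equal share of the sum (34.5% at most) and the fitted change of -1.01 (SE 0.17) ran from -1.08 to -0.90 with any 1 library left out. On HFD it had 41.5, 37.0 and 35.4 CPM in wt and 42.2, 37.8 and 27.4 CPM in ko (means 38.0 ± 3.2 and 35.8 ± 7.6). All 9 libraries outside wt_normal thus lay between 27.4 and 42.2 CPM, below the lowest wt_normal library. The fitted change on HFD was -0.09 (SE 0.17), with a 95% interval of -0.46 to 0.29, and it was 0.07 without ko_HFD 3.

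**Figure D2:**
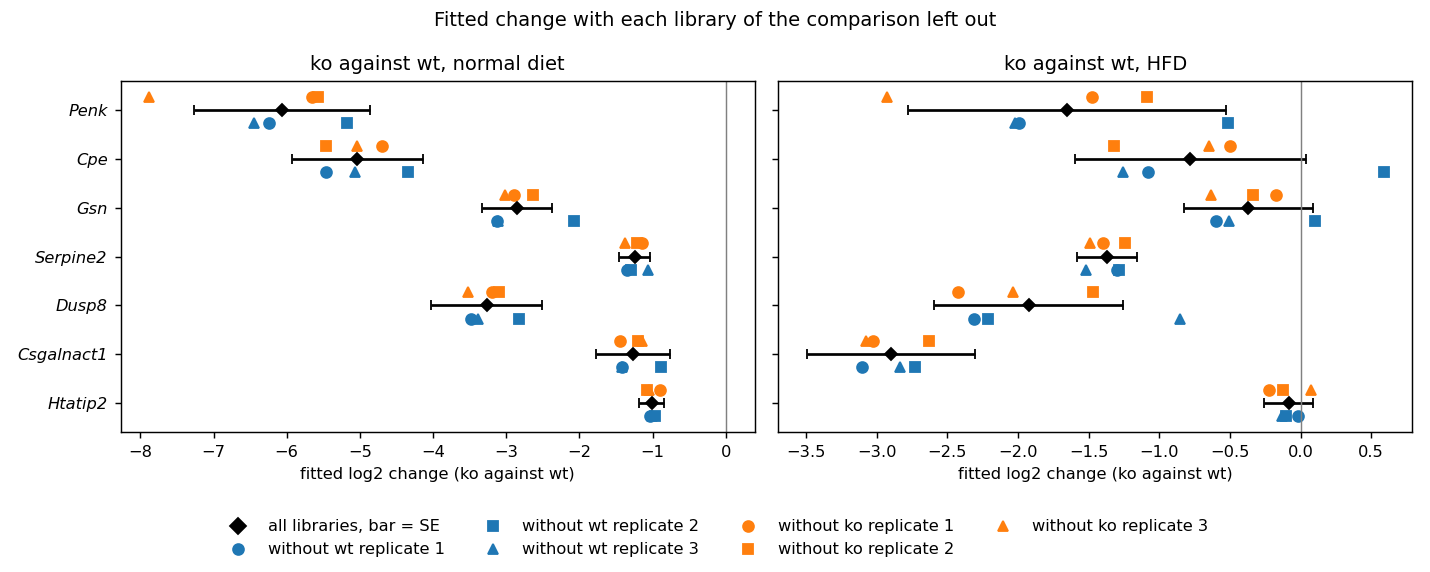
Fitted log2 change of ko against wt on normal diet (left) and HFD (right), with all libraries (diamond, bar = SE) and with each of the 6 compared libraries left out (coloured symbols). On normal diet all points lie below 0, while on HFD Cpe and Gsn cross 0 without wt_HFD 2 and Htatip2 does so without ko_HFD 3.

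Whether the ko difference itself depended on diet was described with the difference of the 2 fitted changes (HFD minus normal diet). These contrasts use the same libraries that chose the genes, so no p is given. The differences were 4.41 (SE 1.87) for Penk, 4.25 (SE 1.20) for Cpe, 2.48 (SE 0.65) for Gsn and 0.93 (SE 0.25) for Htatip2, each towards a smaller ko difference on HFD. The Penk value rests on ko counts of 1 on normal diet and 4 on HFD, too few for a stable size. Serpine2 had a difference of -0.13 (SE 0.30, 95% interval -0.77 to 0.52). Dusp8 had 1.34 (SE 0.99), and Csgalnact1 had -1.63 (SE 0.78), towards a larger ko difference on HFD. For none of the 14433 genes did edgeR call this difference (725 had an unadjusted p under 0.05). DESeq2 called 15 genes and voom 1, and none of the 7 was among them.

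HFD against normal diet, averaged over both genotypes, does not use the ko-against-wt differences that chose the genes, and it was tested. Penk passed the filter on low counts through wt_normal, the group where it is high. Csgalnact1 passed it only through wt libraries, where it is high. Cpe and Dusp8 passed it only with wt libraries counted in, where their means are higher, since too few ko libraries reached the level of the filter. The diet values of Penk, Csgalnact1, Cpe and Dusp8 are thus a description only. Of Gsn, Serpine2 and Htatip2, 0 passed, where 1.04% of all tested genes did. Each had an unadjusted p under 0.05 by the edgeR test, as did 2541 of the 14433 tested genes. Serpine2 was 0.68 higher on HFD on the log2 scale (SE 0.15, edgeR adjusted p 0.0521), and every HFD library was above every normal-diet library in both genotypes, as for 1.52% of all tested genes. Htatip2 had a change of -0.55 (SE 0.12, edgeR adjusted p 0.0554), made up of -1.01 (SE 0.17) in wt and -0.08 (SE 0.17) in ko. Both genes lay just beyond the threshold, and both were called by DESeq2 (adjusted p 0.00297 for Serpine2 and 0.00725 for Htatip2), while voom called Htatip2 (0.0140). Without wt_HFD 3, edgeR called Serpine2 (adjusted p 0.0290). Over all alternatives the adjusted p ran from 0.00297 to 0.187 for Serpine2 and from 0.00725 to 0.183 for Htatip2.

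Gsn was farther from the threshold in the edgeR test, with a change of -0.91 (SE 0.32, adjusted p 0.172). As a description, the fitted value was 1.30 (SE 0.50) for Dusp8 and -0.74 (SE 0.62) for Cpe. It was -0.83 (SE 0.39) for Csgalnact1 and -0.41 for Penk. The SE implied for the Penk value was 1.91. It ran from 0.156 to 4.54 with 1 library left out, so it does not measure the spread. The diet values within a genotype reuse the libraries that chose the genes, and a fall from the high wt_normal values is favoured by that choice, so they too are a description. In wt the changes on HFD were -2.61 (SE 0.87) for Penk, -2.86 (SE 0.77) for Cpe and -2.15 (SE 0.47) for Gsn. In ko Cpe had 1.39 (95% interval -0.63 to 3.41) and Gsn 0.33 (-0.66 to 1.31), and both intervals include 0. Penk in ko had 4 counts on HFD against 1 on normal diet, too few for a fold. In wt, every HFD library was below every normal-diet library for Penk, Gsn and Htatip2 (10.7% of tested genes). For Penk that gap was narrow, 0.613 CPM in wt_normal 3 against 0.581 CPM in wt_HFD 2. Dusp8 had 0.63 (SE 0.63) in wt and 1.97 (SE 0.77) in ko, and Csgalnact1 -0.02 (SE 0.47) in wt and -1.64 (SE 0.63) in ko. In ko every HFD library of Csgalnact1 was below every normal-diet library (5.96% of tested genes), from 2, 1 and 2 counts on HFD, none above the floor of 3. In ko every HFD library of Cpe and of Serpine2 was above every normal-diet library (5.45% of tested genes).

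**Figure D3:**
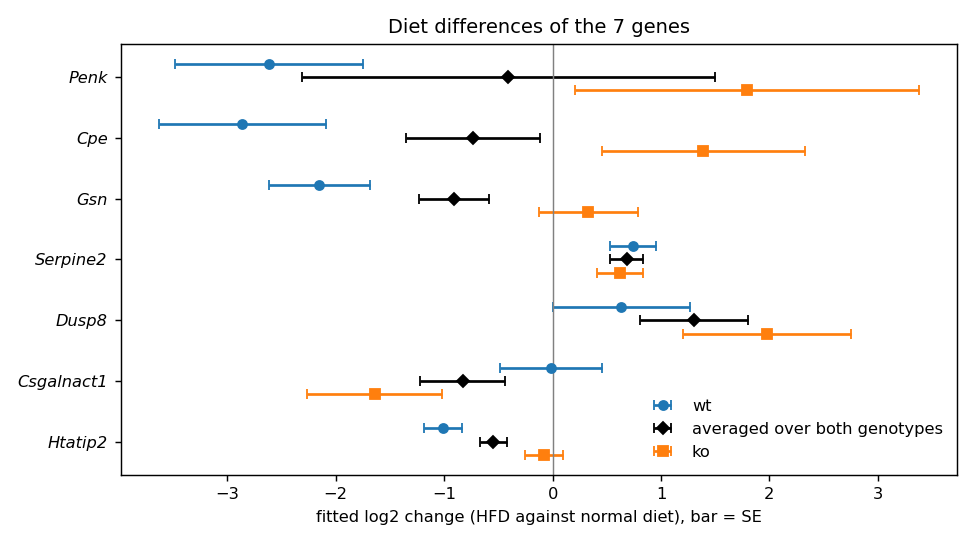
Fitted log2 change of HFD against normal diet in wt (circles), in ko (squares) and averaged over both genotypes (diamonds), with bars of 1 SE. Serpine2 is above 0 in all 3, and Penk, Cpe and Gsn are below 0 in wt. The Penk value in ko rests on 4 counts against 1, and the 95% intervals of Cpe and Gsn in ko include 0. The bar of the averaged Penk value is not a stable measure of spread.

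Cells other than hepatocytes were followed through marker lists, because several of the 7 genes are known from mesenchymal cells. Stellate cell and fibroblast markers (14 of 14 tested) summed to 414, 995 and 479 CPM in wt_normal 1, 2 and 3 and to 311, 253 and 243 CPM in ko_normal. On HFD they summed to 273, 575 and 305 CPM in wt and to 274, 324 and 376 CPM in ko. The 2 libraries with the highest sums, wt_normal 2 and wt_HFD 2, are the ones with the highest Penk, Cpe, Gsn and Csgalnact1 of their groups. Dusp8 and Htatip2 were also highest of their group in wt_normal 2, and Serpine2 in wt_HFD 2. All 14 markers had negative fitted changes in ko on normal diet, with a median of -1.12 (all genes -0.02) and none called, and 10 of 14 on HFD. None of the defining markers Lrat, Reln, Pdgfrb, Col1a1 and Dcn was at 0 in any library. The part of these markers in the values of the 7 genes was not tested.

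Smooth muscle and pericyte markers (7 of 8 tested) summed to 69.5, 77.3 and 139 CPM in wt_normal and 18.3 to 21.9 CPM in ko_normal. They reached 335 CPM in wt_HFD 2, against 21.6 and 29.5 CPM in the other wt_HFD libraries and 17.9 to 49.0 CPM in ko_HFD. Mesothelial markers (5 of 8 tested) summed to 72.3 CPM in wt_normal 2 and to at most 10.5 CPM elsewhere, except 46.9 CPM in wt_HFD 2, of which the keratin Krt19 gave 44.5. Krt19 is also on the cholangiocyte list, whose sum was highest in wt_HFD 2 (111 CPM, against 28.9 to 89.8 CPM in the other libraries). Msln, the mesothelin gene, had 23.0 CPM in wt_normal 2 and 0.581 CPM in wt_HFD 2, and was at 0 in ko_HFD 2. Upk1b and Lrrn4, further mesothelial markers, were at 0 in at least 1 library of every group. Endothelial markers (11 of 11 tested) had negative fitted changes in ko on both diets, with no marker at 0. Their sums ran from 479 to 546 CPM in wt_normal and 253 to 412 CPM in ko_normal. On HFD the ranges were 336 to 460 CPM for wt livers and 248 to 381 CPM for ko livers. Hepatocyte markers summed to more in every ko library (78474 to 88993 CPM) than in any wt library (49681 to 64363 CPM). Alb, the most abundant of them, had means of 23207 CPM in wt_normal and 42741 CPM in ko_normal. By gene, 6 of 10 had a positive and 4 a negative fitted change in ko on normal diet (median 0.17). On HFD 9 of 10 were positive (median 0.45). Of the hepatocyte markers only Alb was called in a ko contrast, higher in the average over diets. In that average the endothelial marker Lyve1 and the smooth muscle and pericyte markers Smtn and Rgs5 were called lower, and no mesothelial marker was called. Over all tested genes, 0.374% were called lower there. None of these lists was tested for its part in the 7 genes.

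With wt_normal 2 and wt_HFD 2 both left out, an alternative chosen after the data were seen, edgeR called 11 genes on normal diet, Gsn among them, 5 on HFD with none of the 7, and 53 in the average over diets, Serpine2 among them. These contrasts chose the genes, so the calls are a description here too. The fitted changes on HFD were then 0.59 for Cpe and 0.10 for Gsn.

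**Figure D4:**
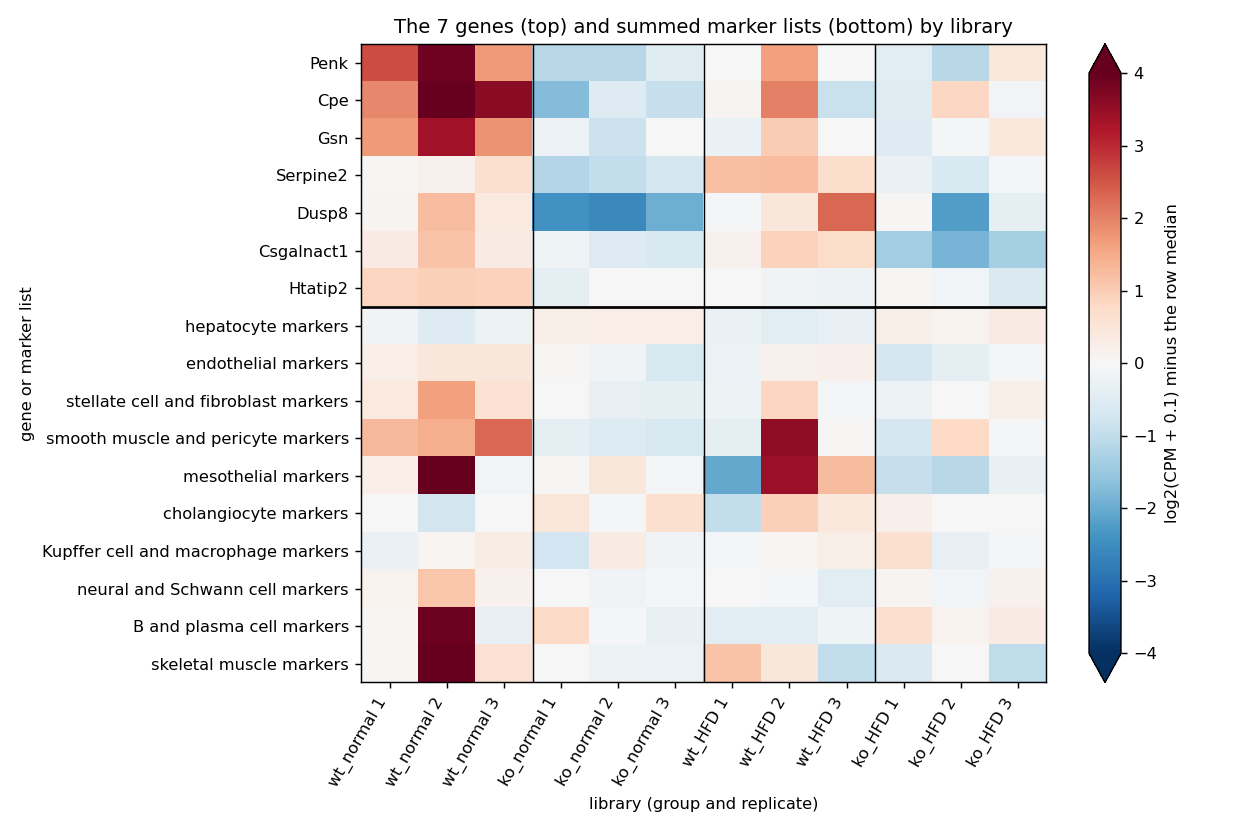
Each row gives log2(CPM + 0.1) minus the row's median over the 12 libraries for the 7 genes (top) and for summed marker lists (bottom), with colours from -4 to 4. Library wt_normal 2 is high for Penk, Cpe and Gsn and for stellate, mesothelial, neural, B cell and skeletal muscle markers. Library wt_HFD 2 is high for Penk, Cpe and Gsn and for smooth muscle, mesothelial, cholangiocyte and stellate markers.

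Variation within groups was compared after subtracting each group's mean of log2 CPM, over 12 libraries that share library depth and makeup. Penk and Gsn varied together (Pearson r 0.845, Spearman rho 0.678), and r was 0.645 without wt_normal 2 and wt_HFD 2. Cpe and Gsn had r 0.604 (rho 0.538), which was 0.402 without wt_HFD 2 and wt_normal 1. Penk and Cpe, precursor and processing enzyme, had r 0.464 (rho 0.252), and the relation rested on wt_normal 2 and wt_HFD 2, since r was -0.108 without them. Csgalnact1 varied with Gsn (r 0.727, rho 0.762) and with Penk (r 0.715, rho 0.713), and r was 0.440 and 0.453 without those 2 libraries. It also varied with Dusp8 (r 0.599, rho 0.594), with r 0.584 without wt_HFD 3 and ko_HFD 2. Serpine2 and Gsn had r near 0 (r 0.0913, rho 0.0699; 0.132 without wt_normal 2 and wt_HFD 2). These are part of the 21 pairs and are given as a description.

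**Figure D5:**
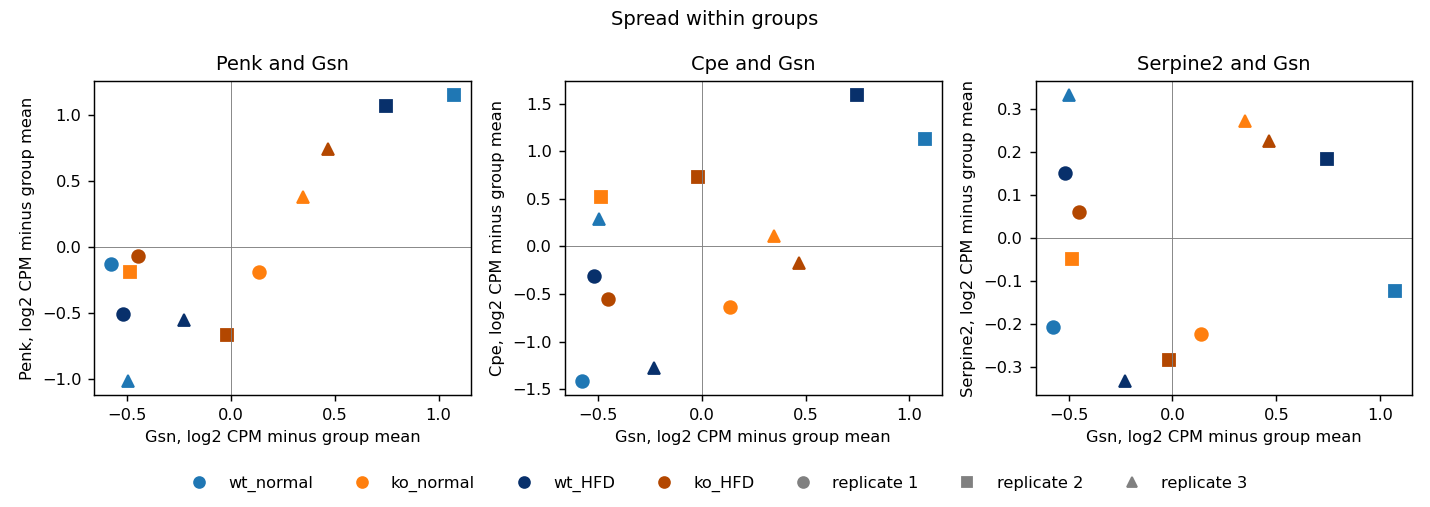
Deviation of log2 CPM from the group mean in the 12 libraries for Penk, Cpe and Serpine2 (vertical axes) against Gsn (horizontal axes). The replicate 2 libraries of wt_normal and wt_HFD stand at the upper right for Penk and Cpe, and Serpine2 shows no such order.

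The genes most like each of the 7 across the 12 libraries were named by Pearson r of log2 CPM, which includes the group differences. For Penk they were Cd34, a surface glycoprotein of endothelial and mesenchymal progenitor cells (r 0.97), the pericyte marker Rgs5 (0.94) and Plxdc1 (0.94). For Gsn they were Aebp1 (0.97), Fndc1 (0.96) and Cd34 (0.96), and for Cpe Gimap5 (0.94), Osr1 (0.93) and Clec3b (0.93). Cd34 itself had 3.45, 17.4 and 3.27 CPM in wt_normal and 0.637 to 1.09 CPM in ko_normal, so it too was highest in wt_normal 2. For Serpine2 the closest were Bet1l (0.92), Qsox2 (0.92) and Acsl4 (0.91), and for Dusp8 Ppp4r2 (0.92), Cebpd (0.91) and Kcnj8 (0.91). For Csgalnact1 they were Arglu1 (0.92), Snx6 (0.89) and Chst12 (0.89), the last a chondroitin sulfotransferase, and for Htatip2 Pou6f1 (0.92), Ndrg3 (0.92) and Rgl1 (0.92).

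Over the 11 libraries without wt_normal 2 these names changed in part. Penk kept Cd34 (0.96), now followed by Mmp3 and Atp2b4, and Gsn kept Aebp1 after Vim and Dpt, the last from the fibroblast list. Cpe kept 0 of its 3, with Col4a6, Cend1 and Lgr6 in their place. Serpine2 kept Bet1l behind Dnajc1 and Cplane1. Dusp8 kept Ppp4r2 and Cebpd and added Prag1, Csgalnact1 kept Arglu1 and Snx6 and added Cntln, and Htatip2 kept Ndrg3 and Pou6f1 behind Srcin1. Ranked by Spearman rho over the 12 libraries, Cpe, Gsn and Htatip2 kept 0 of their 3. Penk, Serpine2, Dusp8 and Csgalnact1 each kept 1, so most of these names depend on the measure.

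The other genes of each pathway come from lists compiled with earlier results known. Over all tested genes, 0.208% were called in either direction for ko against wt on normal diet, 0.0693% on HFD, 1.16% averaged and 1.04% for diet, so lists of this size would hold few or no called genes at these shares. Of 15 tested genes for neuropeptide processing and opioid signalling, the partners of Penk and Cpe, 0 were called in any of the 3 ko contrasts or for diet. Of these, Pcsk7, a proprotein convertase, had a diet change of -0.42 (edgeR adjusted p 0.146) and Mme, the enkephalin-degrading neprilysin, -0.64 (0.224). Of 10 tested actin-severing and actin-binding genes beside Gsn, 0 were called. Cfl2, cofilin 2, had -0.41 (edgeR adjusted p 0.142) and Cap1 -0.28 (0.342) for diet. Of 20 tested genes on a list of serine proteases and inhibitors, 1 was called lower in ko averaged over the diets, Serpinb6a, and 0 for diet. F10, coagulation factor X, had a diet change of 0.47 (edgeR adjusted p 0.161).

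Of 20 tested dual-specificity phosphatases and MAP kinases, the family and targets of Dusp8, 0 were called. Their fitted change in ko on normal diet was negative for 18 of 20 with a median of -0.30, where 52.0% of all tested genes were negative. On HFD it was negative for 12 of 20 with a median of -0.07, where 51.1% of all tested genes were negative. Dusp7 had a diet change of -0.74 (edgeR adjusted p 0.208) and Map2k7 of -0.38 (0.245). Of 23 genes of chondroitin sulfate synthesis and proteoglycans, 0 were called, 18 of 23 had a negative change in ko on normal diet, and the median was -0.48. On HFD 15 of 23 were negative, with a median of -0.11. Sdc4, syndecan 4, had a diet change of 0.69 (edgeR adjusted p 0.0905) and Dse, which epimerises chondroitin to dermatan sulfate, -0.48 (0.225). The medians of all tested genes were between -0.02 and -0.01 in these contrasts, and these lists were not tested as sets. Of 29 tested p53 targets, Cdkn1a was called lower on normal diet, and Cdkn1a and Aen in the average over diets. Gdf15, a stress-induced secreted factor, rose on HFD by 2.90 on the log2 scale (edgeR adjusted p 0.0150), and Fas had 0.56 (0.105).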

How the data were processed

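RNA sequencing libraries of 12 liver samples were grouped by the labels into 4 groups of 3. The authors deposited whole-number read counts per Ensembl gene, used here as deposited. Per the submitters' processing notes, CASAVA 1.8 and Bowtie 0.12.2 were used and builds mm8 and mm9 are named. The sources used here name no counter, annotation or strand setting, so reads of overlapping or antisense genes cannot be told apart. Symbols were matched for 52403 of 52636 identifiers. Positions come from GENCODE M21 by gene identifier and are not the authors' coordinates. Promoter windows come from RefSeq.

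edgeR 4.0.16 (R 4.3.3) was applied with filterByExpr, TMM scaling and the two-sided quasi-likelihood F-test in 1 fit of 4 groups to 12 libraries (8 residual and 4.66 prior degrees of freedom), with Benjamini-Hochberg adjustment over 14433 genes. The SE is the one implied by that test, and for the averaged diet value of Penk it was not stable. CPM uses TMM-scaled library totals. Correlations used log2 CPM with a prior count of 2. The fit was tested on simulated counts. Count ratios have exact 95% intervals. Since separate animals are not stated, p-values reflect variation among libraries only, part of which may be technical. Replicate pairs differed beyond counting error (chi-square per degree of freedom 39.5 to 199).

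The 7 genes and all lists were chosen with earlier results of these data known. Named are the 7 genes, Trp53 and Cdkn1a, of each pathway list the 2 genes with the smallest p for diet, called list members, and for each of the 7 the 3 genes of highest r, predicted gene models left out. A gene that this rule names is not reported here. Marker genes beyond the 2 most abundant of a list were chosen after their values were seen. Alternatives were DESeq2 size factors, no filter, at least 1 CPM in 3 libraries, voom with sample weights (limma 3.58.1), DESeq2 1.42.0 (Wald test), a robust spread, a replicate block, only the groups compared, and leaving out libraries.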

Additional observations from a re-analysis of the deposited data

How the results depend on the processing

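Which genes pass depends on the tool and on single libraries, while most directions of the 7 genes do not. On normal diet, ko against wt gave 30 called genes, and 648 with no filter, 496 by DESeq2, 1908 by voom, 96 with only the 2 groups compared and 11 without wt_normal 2 and wt_HFD 2, with 3 to 84 when 1 library was left out. On HFD the number was 10, and 51, 83, 5, 6 and 5 under the same settings, with 2 to 14 for 1 library left out. In the average over diets it was 168, and 644 with no filter, 786 by DESeq2, 664 by voom and 53 without both libraries, with 45 to 254 for 1 left out. For diet averaged over genotypes it was 150, and 489, 732, 610 and 42, with 45 to 272 for 1 left out. The cause was not tested, beyond the smaller number of libraries in the last settings.

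Of the 7 genes, Penk, Cpe, Dusp8 and Csgalnact1 among them as a description, 0 were called for diet. It was 1 under DESeq2 size factors, the 1 CPM filter and a robust spread (Serpine2), 3 with no filter (Gsn, Serpine2 and Htatip2), 2 by DESeq2, 1 by voom (Htatip2), and 0 to 1 with 1 library left out. The adjusted p of Serpine2 under edgeR alternatives that called it ran from 0.0123 to 0.0478. The sign turned for Penk and diet without wt_normal 2 (0.03) or ko_normal 3 (0.51; range with 1 library left out -1.03 to 0.51). On HFD, ko against wt, it turned for Cpe without wt_HFD 2 (0.59; range -1.32 to 0.59) or both libraries (0.59), for Gsn likewise (0.10; range -0.64 to 0.10, and 0.10), and for Htatip2 without ko_HFD 3 (0.073; range -0.22 to 0.073). No sign turned under any alternative for ko against wt on normal diet or averaged over diets. The 1 CPM filter drops Penk and Csgalnact1.

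Same-numbered libraries of different groups were not taken as pairs: correlations of the 18 pairs ran from -0.209 to 0.332, with 4 over 0.1. As a hint from the data, 7 of 12 libraries correlated best with their own number. With the replicate number as a block, 45, 7, 157 and 104 genes were called in the 4 comparisons, among them 3 of the 7 genes on normal diet, 0 on HFD, 5 averaged and 0 for diet. Depth limits Penk and Csgalnact1, with 116 and 108 counts over all 12 libraries.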
